A study of Mus musculus with 4 samples.

Results

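Cytokine receptors and the NF-kB, JAK and TGF-beta signalling genes behind them were followed in CT26 cells, a mouse colon carcinoma line, that were exposed for 24 h to 25 µM riluzole or to its solvent DMSO. Riluzole is a drug used in amyotrophic lateral sclerosis. The cells carried no engineered change by their label (genotype WT), and 2 riluzole and 2 control libraries of polyadenylated RNA were sequenced. Members were protein-coding genes whose symbol belongs to the TNF receptor, interleukin receptor and gp130, interferon receptor, Toll-like receptor, MYD88, IRAK, TRAF, RIPK, IAP, Tnfaip, NF-kB, IkB, IkB kinase, JAK, STAT3 to STAT6, SOCS, PIAS, TGF-beta receptor, Smad or caspase families and which the authors' deposited table lists at a p-value below 0.05 for riluzole against control. They number 39 of 4295 listed genes, and the same symbol pattern matches 168 protein-coding genes of a mouse annotation (GENCODE M21). The 39 are 23.2% of these 168. All listed genes were 34.1% of the 12601 genes that the authors tested, as their p-values imply. How many of the 168 were among those tested is not known here. The other 129 were not analysed here, among them all 5 interferon receptor genes, Rela, Nfkb1, Jak1, Jak2 and Socs3, and nothing can be said of their change. The rule also leaves out Tnfrsf10b and Ikbke. Closest to the listing threshold were Stat5b, Il27ra and Tnfaip8, with p-values of 0.0495, 0.0479 and 0.0465 in the authors' deposited table; genes just past it were not analysed here.

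Libraries held 18174251 and 15932205 counts with riluzole and 15803444 and 20562946 counts in the controls, as the deposited FPKM values imply. The labels do not say that replicates came from separate cultures, and the p-values speak only of the scatter among these 4 libraries, which may be technical. In bulk RNA, fewer cells that express a gene and less RNA per cell cannot be told apart. Of 6 epithelial markers Krt8 and Krt18 were listed, with means of 16.6 and 740 normalised counts with riluzole and 3.88 and 519 in the controls, normalised here meaning scaled by the size factor of its library. Of 7 leukocyte markers only Cd68 was listed (326 against 200), of 4 fibroblast markers only Col1a1 (1420 against 1805) and of 3 endothelial markers none, so the identity of the line could be checked on few genes; the part of other cells in the results was not tested.

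These genes form the receiving side of inflammatory signalling. TNF, interleukin-1 and Toll-like receptors recruit adaptors and kinases (MYD88, IRAKs, TRAFs, RIPKs) that lead the IkB kinase complex to destroy IkB proteins and so free NF-kB, which in turn switches on genes of its own inhibitors. Class I and class II cytokine receptors lack kinase activity and signal through JAK kinases to STAT transcription factors, with SOCS and PIAS proteins as brakes. TGF-beta receptors phosphorylate Smads, and caspases are proteases of cell death and of the inflammasome.

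Among the 39 genes, 25 rose and 14 fell with riluzole in edgeR's quasi-likelihood test at a Benjamini-Hochberg adjusted p under 0.05. Over all listed genes the share called was 41.3% higher and 58.2% lower, and 14.1% and 19.8% of all 12601 genes that the authors tested, as their p-values imply. The median log2 fold change was 0.33 over the 39 genes and -0.19 over all listed genes. Il12rb1, Tlr3 and Il1rl1 changed most, each by more than 2-fold upwards, and no member fell that far. At least 2-fold changes made up 7.78% of all listed genes. The 25 rises had a median log2 fold change of 0.47, in a range of 0.17 to 1.40, and the 14 falls a median of -0.27, in a range of -0.46 to -0.15. Since listing itself required a low p-value, neither the call of all 39 nor the separation of riluzole from control libraries in all 39 (99.9% of all listed genes) is evidence about them. The authors' deposited table, at its own adjusted p, has 18 of the 39 higher and 7 lower. That table called 28.3% of all listed genes higher and 44.7% lower (9.63% and 15.2% of all genes tested).

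**Figure D1:**
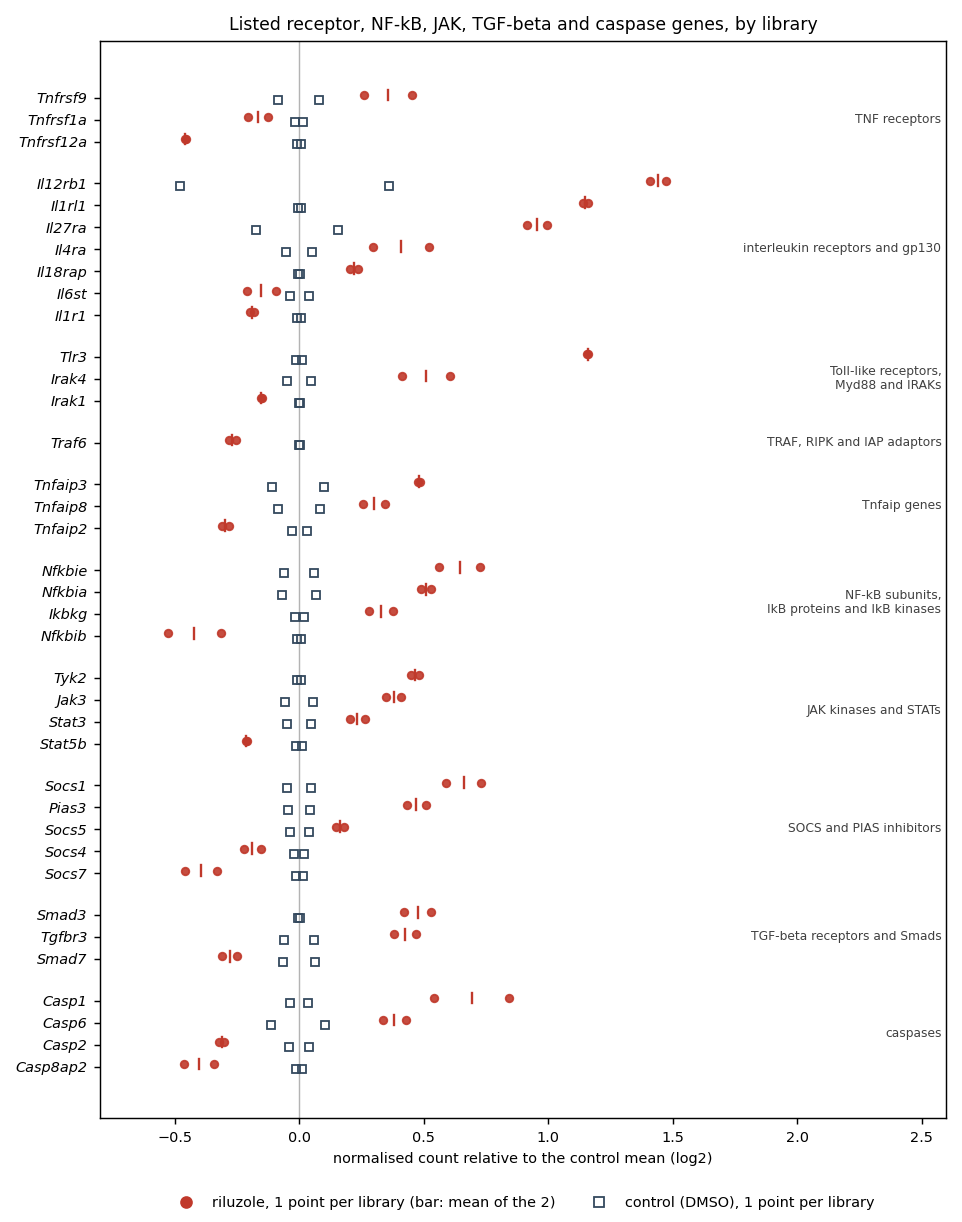
Normalised count of 37 of the 39 genes in each library, relative to the control mean on a log2 axis and grouped by role, with riluzole libraries as filled circles (bar at their mean) and DMSO controls as open squares. Il12rb1, Il1rl1 and Tlr3 lie more than 1 log2 unit to the right, and riluzole and control libraries are separate for all 37 genes.

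The 3 listed TNF receptor genes did not move together. Tnfrsf12a, which encodes Fn14, the receptor of the cytokine TWEAK, had 11276 and 11312 normalised counts with riluzole and 15428 and 15594 in the controls. It was the most abundant of the 39 genes per length and fell by 27.2% (log2 fold change -0.46 ± 0.04, SE; edgeR adjusted p = 2.06e-10). Tnfrsf1a, the gene of TNF receptor 1, had 1916 and 2024 normalised counts with riluzole and 2230 and 2184 in the controls, a fall of 0.16 ± 0.05 on the log2 scale. Tnfrsf9 encodes 4-1BB, a costimulatory receptor best known from T cells. Its 429 and 490 normalised counts with riluzole stood against 379 and 337 in the controls, a rise of 0.36 ± 0.10 (log2, SE). Both riluzole libraries were above both controls for Tnfrsf9 and below them for Tnfrsf1a and Tnfrsf12a, a separation that listing nearly fixes (99.9% of listed genes). The call of Tnfrsf9 was lost in edgeR without control replicate 2 and without riluzole replicate 2 (highest Benjamini-Hochberg adjusted p over the 11 alternatives = 0.135). The call of Tnfrsf1a was lost without control replicate 1, without riluzole replicate 1 and with DESeq2's Wald test. Tnfrsf9 and Tnfrsf1a had adjusted p-values of 0.0781 and 0.0884 by the authors' deposited table.

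Of 7 listed interleukin receptor genes, 5 rose and 2 fell, where 41.3% of all listed genes were called higher and 58.2% lower. Il12rb1, the shared receptor chain of interleukin-12 and interleukin-23, had 153 and 146 normalised counts with riluzole and 39.5 and 70.6 in the controls, a 2.63-fold rise (log2 fold change 1.40 ± 0.20, SE). The controls differed from each other more than the riluzole libraries did. All 11 alternatives kept the call, with log2 fold changes of 1.08 to 1.92, but they reuse the libraries by which the gene was listed. The same limit holds for each kept call given below. Il27ra, which encodes a receptor chain of interleukin-27, was the least abundant of the 39 genes, with 51.3 and 54.2 normalised counts with riluzole and 24.1 and 30.3 in the controls. Its rise of 0.93 ± 0.29 (log2, SE) lost its call with DESeq2's Wald test, without control replicate 1 and without riluzole replicate 2, and had an adjusted p of 0.145 in the authors' deposited table. Il4ra, the signalling chain of the interleukin-4 and interleukin-13 receptors, had 452 and 387 normalised counts with riluzole and 304 and 327 in the controls (log2 fold change 0.41 ± 0.10, SE), and was not called without riluzole replicate 1 (edgeR adjusted p = 0.113). The authors' deposited table gives Il4ra an adjusted p of 0.0505, and its exons overlap a gene on the opposite strand.

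Il1r1, Il1rl1 and Il18rap belong to the interleukin-1 receptor gene cluster on the plus strand of chromosome 1. Il1rl1 and Il18rap rose, and Il1r1 was called lower under the authors' size factors. Il1rl1 (chromosome 1, 40468730 to 40504575, mm39), the gene of the interleukin-33 receptor ST2, had 2365 and 2337 normalised counts with riluzole and 1056 and 1064 in the controls. That 2.22-fold rise was the most precisely measured large change of the 39 genes (log2 fold change 1.15 ± 0.05, SE; edgeR adjusted p = 5.29e-17; 1.12 to 1.32 over the 11 alternatives). Downstream of it lies Il18rap (40554522 to 40590865), which encodes the accessory chain of the interleukin-18 receptor, with 1953 and 1995 normalised counts with riluzole and 1699 and 1690 in the controls, a rise of 0.22 ± 0.05 on the log2 scale. Upstream lies Il1r1 (40264240 to 40356417), the interleukin-1 receptor gene, with 1045 and 1058 against 1207 and 1193. It fell by 12.4%, a call that edgeR no longer made once control replicate 1 or riluzole replicate 1 was omitted, nor was it made with DESeq2's Wald test. It was not called with TMM factors, nor with DESeq2 size factors, where its log2 fold change was -0.024, and the authors' deposited table gives it an adjusted p of 0.131. Riluzole libraries were apart from controls for all 3, as for 99.9% of listed genes. The log2 fold change was 1.15 ± 0.05 for Il1rl1, 0.22 ± 0.05 for Il18rap and -0.19 ± 0.06 for Il1r1 (SE). Il6st, the gp130 gene, encodes the chain shared by the receptors of interleukin-6, interleukin-11 and LIF; it had 2378 and 2197 normalised counts with riluzole and 2607 and 2473 in the controls. Its fall by 9.77% was lost without control replicate 1, without riluzole replicate 2 and with DESeq2's Wald test (authors' deposited table, adjusted p = 0.123).

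Toll-like receptor signalling was listed for 3 genes. Tlr3, whose product senses double-stranded RNA in endosomes and is itself interferon-inducible, had 301 and 302 normalised counts with riluzole and 134 and 136 in the controls. It rose 2.23-fold (log2 fold change 1.16 ± 0.13, SE; edgeR adjusted p = 1.6e-08) and kept its call in all 11 alternatives. Under the authors' size factors the kinase genes behind the MYD88 adaptor went opposite ways. Irak4, the upstream kinase, rose to 331 and 378 normalised counts with riluzole, against 240 and 257 in the controls (log2 fold change 0.50 ± 0.11, SE). Irak1, its substrate, fell to 2645 and 2653, against 2950 and 2941 (log2 fold change -0.15 ± 0.04, SE). Traf6, the ubiquitin ligase that takes the signal on from the IRAKs, was the only listed gene of the TRAF, RIPK and IAP families. It had 791 and 776 normalised counts with riluzole and 943 and 945 in the controls, and fell by 17.0%. That call stayed whichever library was left out, but not with TMM factors or DESeq2 size factors. For Irak1 the authors' deposited table gives an adjusted p of 0.0608. Its fall was not called with TMM factors, and its sign turned with DESeq2 size factors (log2 fold change 0.013). Exons of Tlr3 and Irak4 overlap genes on the opposite strand and Irak1 hosts microRNAs, and no source used here says whether strand was used in counting.

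The inhibitors of NF-kB split. Nfkbia and Nfkbie, the genes of IkB-alpha and IkB-epsilon, both rose. Nfkbia had 293 and 286 normalised counts with riluzole and 213 and 193 in the controls (log2 fold change 0.52 ± 0.12, SE), and Nfkbie had 233 and 261 against 165 and 151 (0.65 ± 0.13). Nfkbib, the gene of IkB-beta, fell by 25.3%, with 1017 and 1178 normalised counts with riluzole and 1474 and 1458 in the controls (edgeR adjusted p = 1.81e-06). Tnfaip3 encodes A20, the ubiquitin-editing enzyme that ends NF-kB signalling downstream of TNF receptors, and NF-kB is known to induce it. It had 1137 and 1143 normalised counts with riluzole and 877 and 758 in the controls, a rise of 40.1% (log2 fold change 0.49 ± 0.07, SE; edgeR adjusted p = 1e-06). Ikbkg, the gene of NEMO, the regulatory subunit of the IkB kinase, had 1680 and 1570 against 1276 and 1308 (log2 fold change 0.33 ± 0.05, SE). All 11 alternatives kept the direction and the call of these 5 genes, on the same libraries by which they were listed. Exons of Ikbkg and Nfkbib overlap G6pdx and Ccer2 on the opposite strand, so reads of these pairs may be shared.

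Other Tnfaip genes, first found as TNF-induced transcripts, moved apart. Tnfaip2 had 8894 and 9079 normalised counts with riluzole and 10808 and 11262 in the controls. It fell by 18.6%, a call kept by all 11 alternatives. Tnfaip8, a death-regulating gene, had 491 and 463 against 364 and 410, and its rise (log2 fold change 0.30 ± 0.09, SE) was lost with DESeq2's Wald test, without control replicate 1, without riluzole replicate 1 and in the authors' deposited table (adjusted p = 0.142). Both genes overlap exons of a gene on the opposite strand.

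The promoters of the rising feedback genes are shown because the inhibitors Nfkbia, Nfkbie and Tnfaip3 moved the same way, with Tnfrsf9, Tlr3 and Socs1 as the other risen genes that hold an NF-kB or interferon-type motif. Each run is the 250 bases before the RefSeq start (build GRCm38.p6, gene strand, 5′ to 3′), with capitals at motif matches. Windows were available for 30 of the 39 genes; of the 2 each for Tnfaip3 and Tnfrsf9, the one with matches is shown.
Nfkbia: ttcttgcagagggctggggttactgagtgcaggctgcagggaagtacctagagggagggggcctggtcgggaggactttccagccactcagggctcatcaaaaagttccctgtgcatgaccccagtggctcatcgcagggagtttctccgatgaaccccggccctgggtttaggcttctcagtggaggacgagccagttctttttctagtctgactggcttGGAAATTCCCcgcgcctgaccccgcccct
Nfkbie: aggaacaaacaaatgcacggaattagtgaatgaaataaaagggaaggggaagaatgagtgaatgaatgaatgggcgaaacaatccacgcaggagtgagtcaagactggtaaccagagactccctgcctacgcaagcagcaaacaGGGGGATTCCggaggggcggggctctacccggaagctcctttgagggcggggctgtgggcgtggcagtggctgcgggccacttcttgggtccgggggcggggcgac
Tnfaip3: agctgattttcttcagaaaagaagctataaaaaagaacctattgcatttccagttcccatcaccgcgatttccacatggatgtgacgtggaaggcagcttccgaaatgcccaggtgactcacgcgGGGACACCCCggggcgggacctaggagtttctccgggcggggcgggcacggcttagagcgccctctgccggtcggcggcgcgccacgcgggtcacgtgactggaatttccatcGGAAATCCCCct
Tnfrsf9: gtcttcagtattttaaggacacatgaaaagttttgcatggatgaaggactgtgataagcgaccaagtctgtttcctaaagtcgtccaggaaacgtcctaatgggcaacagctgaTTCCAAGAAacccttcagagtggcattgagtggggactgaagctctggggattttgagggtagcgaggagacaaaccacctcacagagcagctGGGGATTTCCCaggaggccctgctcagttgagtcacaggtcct
Tlr3: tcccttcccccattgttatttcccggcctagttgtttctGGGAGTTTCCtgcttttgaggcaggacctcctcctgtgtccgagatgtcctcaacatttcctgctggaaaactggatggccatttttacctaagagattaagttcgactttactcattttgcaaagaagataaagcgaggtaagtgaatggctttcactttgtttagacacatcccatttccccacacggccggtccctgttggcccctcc
Socs1: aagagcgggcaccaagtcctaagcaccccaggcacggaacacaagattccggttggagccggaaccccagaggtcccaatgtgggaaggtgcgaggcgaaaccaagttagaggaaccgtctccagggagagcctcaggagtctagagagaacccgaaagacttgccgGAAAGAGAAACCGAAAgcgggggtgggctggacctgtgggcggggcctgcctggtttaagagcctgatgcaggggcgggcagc

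They lie at chr12:55492648-55492897 (Nfkbia, minus strand), chr17:45555450-45555699 (Nfkbie, plus strand), chr10:19015411-19015660 (Tnfaip3, minus strand), chr4:150927749-150927998 (Tnfrsf9, plus strand), chr8:45410381-45410630 (Tlr3, minus strand) and chr16:10785537-10785786 (Socs1, minus strand). The capitals of Nfkbia, Nfkbie, Tnfaip3 and Tlr3 and the second block of Tnfrsf9 match the NF-kB consensus. The first block of Tnfrsf9 matches GAS, the STAT dimer motif TTCNNNGAA, and the block of Socs1 holds 2 overlapping matches of ISRE, the interferon-response motif (GAAA, a pair of any bases, GAAA). Searched on both strands, the NF-kB consensus was found in 5 of 18 risen and 1 of 12 fallen genes with a window, Il1r1 being the fallen one, and in 15% of the 40 windows of the members against 3.90% of all 32851 windows. GAS was found in 5% of member windows against 7.02% of all, in 1 risen gene (Tnfrsf9) and 1 fallen gene (Tnfrsf1a, not shown). ISRE was found in 2.5% against 2.98%. The rule takes families by symbol, among them inhibitor genes that NF-kB itself is known to switch on. Whether the higher share of the NF-kB consensus in member windows comes from that choice was not tested. The difference in this consensus between risen and fallen genes was not tested either and rests on few genes. A match is a description of these letters and says nothing about whether a factor was bound.

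Of the 4 listed JAK and STAT genes, 3 rose and 1 fell, where 41.3% of all listed genes were called higher and 58.2% lower. Tyk2, a kinase of the type I interferon and interleukin-12 receptors, had 824 and 806 normalised counts with riluzole and 594 and 587 in the controls, a rise of 38.2% (log2 fold change 0.47 ± 0.07, SE; edgeR adjusted p = 6.32e-06). Jak3, the kinase paired with the common gamma chain, had 731 and 763 against 596 and 552 (0.38 ± 0.08). Both held in all 11 alternatives. Stat3, the transcription factor downstream of gp130, had 1194 and 1144 normalised counts with riluzole and 1028 and 961 in the controls, a rise of 17.9%. Stat5b, which serves growth hormone and interleukin-2 type receptors, had 756 and 754 against 867 and 882, and fell by 13.7%. Stat3 lost its call without control replicate 2, and Stat5b without control replicate 2, without either riluzole library and with DESeq2's Wald test. The authors' deposited table puts the adjusted p of Stat3 and Stat5b at 0.0614 and 0.148. With TMM factors or DESeq2 size factors Stat5b was not called either. Exons of Stat3 overlap Stat5a, those of Jak3 overlap Insl3 and those of Tyk2 overlap an uncharacterised gene.

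Brakes on cytokine signalling also went both ways, with 3 of 5 higher, where 41.3% of all listed genes were called higher. Socs1, an interferon-inducible inhibitor of JAK kinases, had 219 and 241 normalised counts with riluzole and 150 and 140 in the controls, a 1.58-fold rise (log2 fold change 0.66 ± 0.14, SE; edgeR adjusted p = 0.000198). Pias3, named as an inhibitor of activated STAT3, had 655 and 622 against 447 and 474 (0.47 ± 0.08). Socs7 fell to 849 and 776 normalised counts with riluzole, against 1078 and 1058 in the controls (log2 fold change -0.39 ± 0.07, SE). These 3 calls held in all 11 alternatives. Socs4 fell by 12.1% (log2 fold change -0.19) and Socs5 rose by 12.2% (0.17), both among the smallest changes of the 39 genes. Socs4 had 1101 and 1051 normalised counts with riluzole and 1243 and 1208 in the controls, and Socs5 had 3497 and 3419 against 3166 and 3003. The call of Socs4 was lost without control replicate 1, without riluzole replicate 2 and with DESeq2's Wald test. It was also lost with TMM factors, with DESeq2 size factors and by the authors' deposited table (adjusted p = 0.142). The call of Socs5 was lost without control replicate 2.

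Of 13 TGF-beta receptor and Smad genes that match by symbol, 3 were listed. A coreceptor and an activating Smad rose and an inhibitory Smad fell, where 41.3% of all listed genes were called higher and 58.2% lower. Tgfbr1, Tgfbr2, Smad2 and Smad4 were not listed. Smad3 encodes a receptor-activated Smad. It had 1639 and 1765 normalised counts with riluzole and 1227 and 1220 in the controls. That was a 1.39-fold rise (log2 fold change 0.48 ± 0.05, SE, edgeR adjusted p = 2.65e-08). Tgfbr3, the gene of betaglycan, which presents TGF-beta to its receptors, had 1026 and 965 against 710 and 772 (0.42 ± 0.07). Smad7, which blocks Smad activation and is induced by TGF-beta, had 1241 and 1190 normalised counts with riluzole and 1540 and 1410 in the controls (log2 fold change -0.27 ± 0.06, SE). No left-out library ended any of these calls, and the authors' deposited table also calls all 3 genes. With DESeq2 size factors Smad7 was not called. An exon of Tgfbr3 overlaps another gene on the same strand.

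Of 6 listed caspase genes, 4 rose and 2 fell, where 41.3% of all listed genes were called higher and 58.2% lower. Casp1, the inflammasome protease that matures interleukin-1 beta, had 136 and 167 normalised counts with riluzole and 95.5 and 90.8 in the controls, a 1.62-fold rise (log2 fold change 0.70 ± 0.17, SE). Casp6, an effector caspase gene, had 316 and 297 normalised counts with riluzole and 217 and 252 in the controls, and rose by 29.8%. Casp2, a protease linked to genotoxic stress, fell to 518 and 510, against 656 and 621. Casp8ap2, which is named for binding caspase-8 and is no protease itself, fell to 379 and 349, against 476 and 484. The call of Casp1 was lost without riluzole replicate 2 (edgeR adjusted p = 0.0535) and that of Casp6 without control replicate 1, without riluzole replicate 1 and with DESeq2's Wald test. Casp6 and Casp2 missed the threshold by the authors' deposited table, at adjusted p-values of 0.136 and 0.0603. Casp2 was not called with TMM factors or DESeq2 size factors, and Casp8ap2 was not called with DESeq2 size factors.

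**Figure D2:**
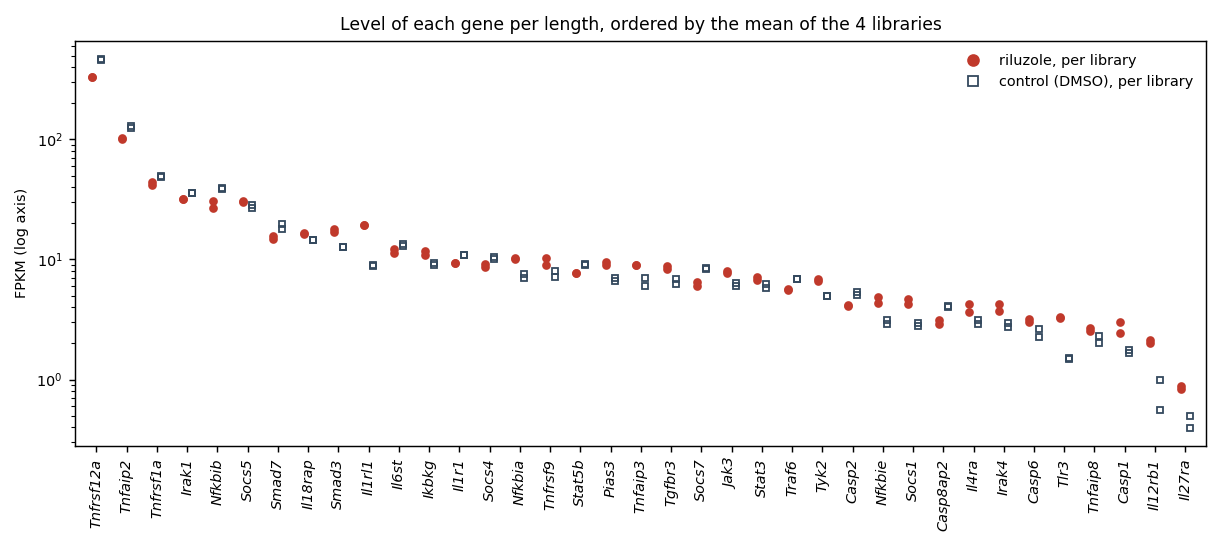
FPKM (fragments scaled by gene length and library total, log axis) of 37 of the 39 genes in each library, riluzole as filled circles to the left of DMSO controls as open squares, ordered by the mean of the 4 libraries. Tnfrsf12a and Tnfaip2 stand above all others at 398 and 115 FPKM on average, and Il27ra is lowest at 0.653.

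Levels per length spanned 0.653 to 398 FPKM (means over the 4 libraries), with a median of 7.74. Tnfrsf12a averaged 332 ± 0.392 FPKM with riluzole and 464 ± 4.44 in the controls (SD, n = 2 each), and Tnfaip2 102 ± 1.38 and 128 ± 3.99. Then came Tnfrsf1a, Irak1 and Nfkbib at 46.2, 34.0 and 33.9 FPKM over the 4 libraries, all 3 among the genes that fell. The interleukin and Toll-like receptors with large rises were low: Tlr3 averaged 2.39 FPKM over the 4 libraries, and Il12rb1 averaged 2.07 ± 0.0704 FPKM with riluzole and 0.775 ± 0.311 in the controls. Il1rl1 was the exception, at 19.4 ± 0.185 FPKM with riluzole and 8.88 ± 0.0662 in the controls. The median level was 6.50 FPKM for the 25 genes that rose and 11.3 FPKM for the 14 that fell, a description with no test.

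Directions of the smaller falls depended on how the libraries were scaled. With the authors' size factors 64.1% of the calls among the 39 genes were higher, and 41.5% of those among all listed genes. TMM factors from the listed genes raised each log2 fold change by 0.098 and gave 25 higher and 6 lower (80.6% higher; 51.8% over all listed genes), and size factors that DESeq2 drew from the listed genes raised it by 0.17 and gave 25 and 4 (86.2%; 63.1%). Both centre on genes listed for a low p-value, more of them lower, which builds in an upward shift. Under DESeq2 size factors Tnfrsf12a, Nfkbib, Socs7 and Tnfaip2 were still called lower, and Il6st, Irak1 and Tnfrsf1a changed sign at log2 fold changes under 0.02, so their falls cannot be told from the choice of scale. The 25 rises were called under each of the 4 scalings. The library totals implied by FPKM changed no call of the 39.

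**Figure D3:**
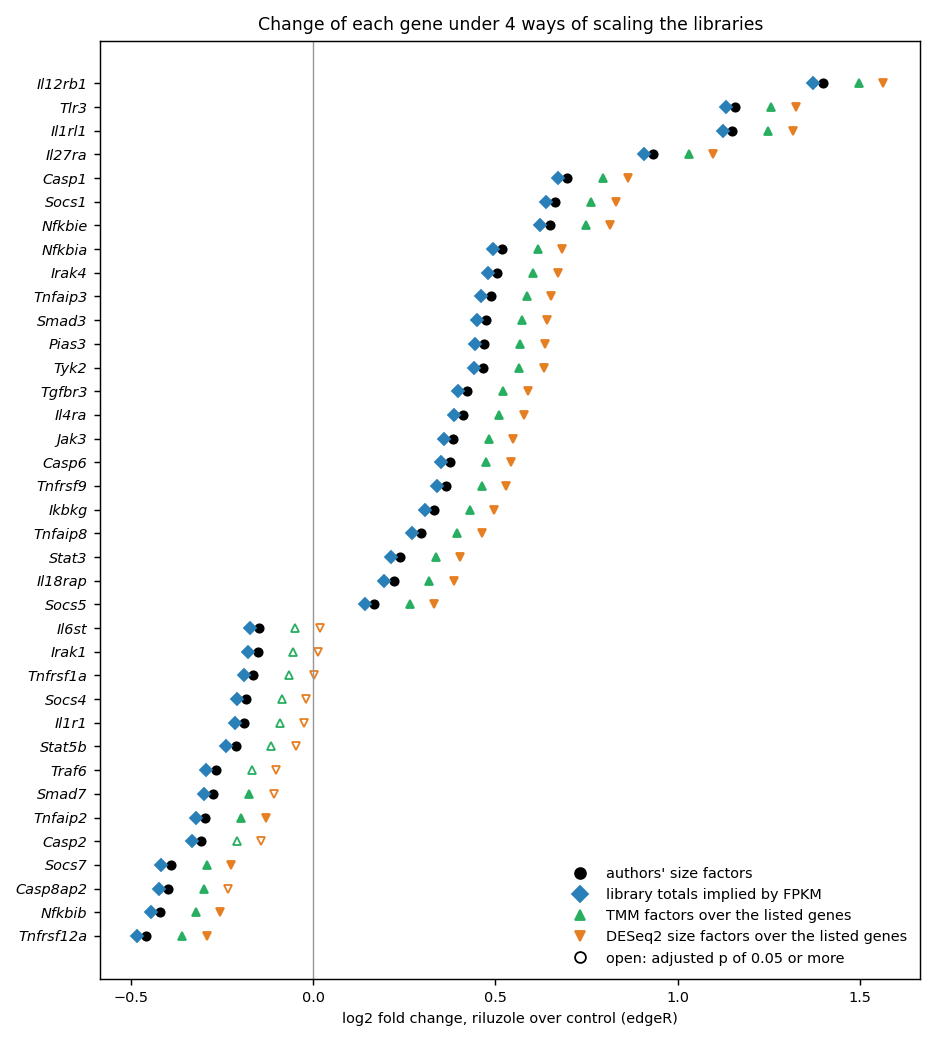
Log2 fold change of riluzole over control for 37 of the 39 genes in edgeR under 4 scalings of the libraries, with filled symbols for an adjusted p under 0.05. The 23 rises shown stay filled and to the right under every scaling, while 10 of the 14 falls lose their call under DESeq2 size factors and 3 of these cross 0.

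Other genes of the same pathways were read from lists. Beside each count of listed genes below, 34.1% of all genes tested were listed. Of a list of 30 ligand genes 8 were listed, and these 8 rose (median log2 fold change 0.48), where 41.3% of all listed genes were called higher. The list is not complete: Csf1, a cytokine that stands in the NF-kB target list, fell by 0.54 on the log2 scale. Il11 and Lif, ligands of gp130 receptors, averaged 674 ± 45.4 and 1307 ± 2.46 normalised counts with riluzole and 423 ± 7.62 and 982 ± 39.8 in the controls (SD, n = 2 each). Tgfb1 averaged 903 ± 36.0 with riluzole and 670 ± 41.2 in the controls. The others were Il15, Tgfb3, Il34, Clcf1 and Bmp1, the last a metalloprotease and no cytokine, with log2 fold changes of 0.39 to 1.20. Each scaling shifts all genes by 1 amount smaller than any of these changes, so the direction of the 8 does not depend on it.

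**Figure D4:**
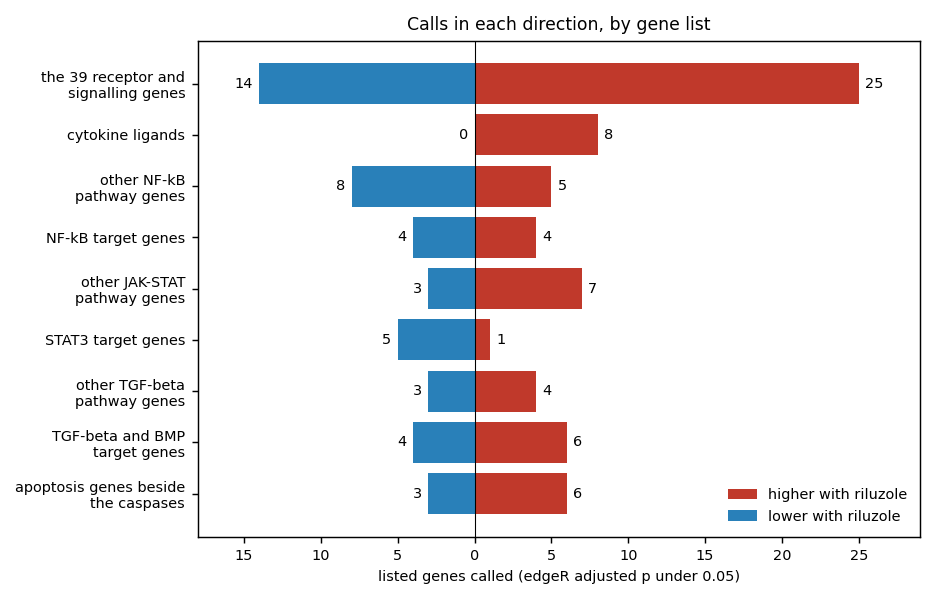
Number of listed genes called higher (right, red) or lower (left, blue) with riluzole in edgeR, for the 39 genes and for 8 lists of other genes of the same pathways. The ligand list has 8 higher and 0 lower, without the cytokine Csf1, which is counted as lower among the NF-kB targets.

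Of 30 other NF-kB pathway genes, 13 were listed, 5 higher and 8 lower (median log2 fold change -0.17). The share of calls that were higher, 38.5%, was near the 41.5% over all listed genes. Zbp1, a sensor of Z-form nucleic acid that engages RIPK3 and is interferon-inducible, averaged 308 ± 16.6 normalised counts with riluzole and 78.1 ± 15.3 in the controls (SD, n = 2 each), a rise of 2.00 on the log2 scale. Rbck1, a subunit of the linear ubiquitin ligase, rose by 0.30 on the log2 scale, and Cyld, a deubiquitinase that restrains NF-kB, fell by 0.28. Of 28 NF-kB target genes, 9 were listed, 4 higher, 4 lower and 1, Ptgs2, not called (log2 fold change 0.09, edgeR adjusted p = 0.146). The adhesion gene Vcam1 rose by 0.41 on the log2 scale, while Lcn2 and Csf1 fell by 1.28 and 0.54, so this list had no shared direction.

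Of 24 other JAK-STAT genes, 10 were listed, 7 higher and 3 lower (median log2 fold change 0.57), where 41.3% of all listed genes were called higher. Stat2 and Usp18, both interferon-inducible, averaged 1523 ± 24.2 and 1518 ± 229 normalised counts with riluzole and 567 ± 25.3 and 410 ± 26.3 in the controls (SD, n = 2 each). These rises were 1.42 and 1.89 on the log2 scale, against 1.40 for Il12rb1, the largest of the 39 genes. The phosphatase genes Ptpn2, which restrains JAK1 and JAK3, and Ptpn11 fell by 0.39 and 0.26. Of 15 STAT3 target genes, 6 were listed, 1 higher and 5 lower (median -0.27), where 58.2% of all listed genes were called lower. Ccnd1 rose by 0.35 on the log2 scale, and Vegfa and Cebpb fell by 0.30 and 0.28.

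Of 20 other TGF-beta pathway genes, 7 were listed, 4 higher and 3 lower. Beside each count given here, 41.3% of all listed genes were called higher and 58.2% lower. Ltbp2 and Ltbp4, latent TGF-beta binding proteins, rose by 0.82 and 0.28 on the log2 scale, and Ltbp1 and the Smad corepressor Ski fell by 0.35 and 0.16, Ski with a sign that turned under DESeq2 size factors. Of 16 TGF-beta and BMP target genes, 10 were listed, 6 higher and 4 lower. Id3, a target of BMP signalling, averaged 373 ± 11.6 normalised counts with riluzole and 125 ± 9.55 in the controls (SD, n = 2 each), and Cdkn1a rose by 0.41 on the log2 scale. Pmepa1, a TGF-beta target that restrains the pathway, fell to 446 and 478 normalised counts with riluzole, against 955 and 1002 in the controls, and Col1a1 fell by 0.34. Of 20 apoptosis genes beside the caspases, 9 were listed, 6 higher and 3 lower. The BH3-only genes Bcl2l11 and Bbc3 rose by 0.53 and 0.47 on the log2 scale, and Cycs and Mcl1 fell by 0.37 and 0.25; under DESeq2 size factors Mcl1, Cyld and Ptpn11 were not called.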

How the data were processed

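Groups, dose, time and replicate numbers came from the labels. Per the submitters' processing notes, reads passed through HISAT2 and featureCounts 1.5.0-p3 on mm39, with DESeq2 and edgeR also named; no source used here states their settings. Per the file headers, the authors deposited raw read counts. Their deposited normalised values, a signal, are counts over a size factor (1.03 and 0.904 for riluzole, 0.911 and 1.19 for the controls). The deposited FPKM values divide by gene length and library total. Per the file headers, the authors also computed a log2 fold change of riluzole over control with its raw p-value and an adjusted one; the deposited tables hold only genes with a p-value below 0.05. The ratio of adjusted p to p implies 12601 genes tested, within 0.5 for 3648 of 4218 genes with an adjusted p below 1.

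All 4295 listed genes were tested in edgeR 4.0.16 (R 4.3.3; glmQLFit and glmQLFTest, no covariate, no filter, the authors' size factors), with Benjamini-Hochberg adjustment over 12601 genes. SE is the log2 fold change divided by the root of F, and intervals are 1.96 SE wide on each side. The spread was fitted on genes listed for low p-values: the median trended dispersion was 0.0010, against 0.0028 in DESeq2 1.42.0 on the same counts. The edgeR adjusted p is therefore set beside that of the authors' deposited table. The replicates of each group differed beyond counting error (chi-square per gene 3.20 for riluzole and 3.56 for control).

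The members, role groups and pathway lists were chosen with earlier results of these data known. Named with a value in every library are, per role group, up to 4 called members with the largest change among those averaging at least 50 normalised counts, and up to 2 that ran against their group; from each pathway list, up to 3 called genes with the smallest adjusted p and up to 2 that ran against it. Other members are named once with their change; 2 members and a gene of the pathway lists are counted but not reported here by name or value. Il27ra, the unlisted genes named and the remaining members of the cytokine ligand list are outside that rule, as is Ptgs2: these were chosen with their values known. Exon overlaps of at least 50 bases with another gene and copies of at least 95% identity over 200 bases (BLAST 2.17.0) were sought in GENCODE M21 (GRCm38), by gene identifier: 12 of the 39 genes had an overlap and 0 a copy. Promoter sequences are from RefSeq (GRCm38.p6), matched by symbol. Figures were made with Python 3.11.15 and matplotlib 3.10.9.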

Additional observations from a re-analysis of the deposited data

How the results depend on the processing

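Of the 39 genes, 19 kept their direction and call in all 11 alternatives, 15 that rose and 4 that fell; the alternatives were 3 scalings, DESeq2, the authors' adjusted p, a minimum mean normalised count of 50 (which leaves out Il27ra), each library left out and the replicate block. All of these reuse the libraries by which the genes were listed, so a kept call is no independent support. Lower calls depended most on the processing. With TMM factors over the listed genes, 1656 of all listed genes and 6 of the 39 genes were lower, with 1 lower TNF receptor, 0 interleukin receptors, 0 Toll-like receptor and IRAK genes, 0 TRAF genes, 0 JAK and STAT genes, 1 SOCS or PIAS gene, 1 caspase, and in the lists 5 NF-kB pathway and 1 TGF-beta pathway genes. With DESeq2 size factors from the listed genes these were 1042 and 4, then 1, 0, 0, 0, 0, 1 and 0, with 0 Smad genes, and in the lists 2 NF-kB pathway, 1 JAK-STAT, 3 STAT3 target, 1 TGF-beta pathway and 1 apoptosis genes. The median log2 fold change of the 39 genes was 0.43 and 0.50 under these scalings, and under DESeq2 size factors 4 of the genes followed across alternatives (the members and the list genes named by rule) changed sign: Tnfrsf1a (0.0018), Il6st (0.018), Irak1 (0.013) and Ski (0.0051). DESeq2's Wald test left 9 of the 39 lower, with 1 lower TNF receptor, 0 interleukin receptors, 0 JAK and STAT genes, 1 SOCS gene and 1 TGF-beta pathway gene, and 1 higher Tnfaip gene. The authors' adjusted p left 7 lower, with 0 higher and 1 lower TNF receptors, 3 higher and 0 lower interleukin receptors, 0 lower Toll-like receptor and IRAK genes, 1 higher Tnfaip gene, 0 lower JAK and STAT genes, 1 lower SOCS gene, 2 higher and 1 lower caspases, and 1 lower TGF-beta pathway gene. For the last 2 alternatives the cause was not tested.

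Over the 4 fits that leave out a library, the 39 genes gave 21 to 22 higher and 10 to 13 lower calls. TNF receptors ranged over 0 to 1 higher and 1 to 2 lower, interleukin receptors 0 to 2 lower, Tnfaip genes 1 to 2 higher, JAK and STAT genes 0 to 1 lower, SOCS and PIAS genes 1 to 2 lower, caspases 2 to 4 higher and TGF-beta pathway genes 1 to 3 lower; these fits hold fewer samples. Replicate numbers are shared between groups, but nothing in the labels pairs them, and the deviations of same-numbered libraries from their group means had a correlation of 0.078 across genes (3998 genes, a description). With the replicate block 25 of the 39 genes were higher and 14 lower, and all listed genes gave 1763 and 2510. For Il27ra, the least abundant gene, the 95% interval of the log2 fold change ran from 0.37 to 1.49. The part of depth in that width was not tested.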
